A study of Homo sapiens with 26 samples.

Results

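Drug and xenobiotic metabolizing enzymes add a reactive group to small molecules, or unmask one, in what is called phase I (cytochromes P450, aldehyde dehydrogenases, aldo-keto reductases and carboxylesterases). In phase II they couple the product to glutathione, sulfate or glucuronic acid, which makes it easier to excrete. The liver holds most of this capacity, but breast tumor cells carry some of it, and many of the enzymes also act on hormones, vitamins and fatty acids. The set described here holds 58 of the 30331 named genes of the expression table. It was chosen by symbol (CYP, UGT1 and UGT2, SULT, GST, ALDH, AKR1 and CES families, without CYP51A1, pseudogenes and antisense genes) and selected on measured values, namely a mean of at least 0.5 TPM over the 26 libraries. TPM is a transcript's length-corrected share of a library, scaled to a fixed total, so levels can be compared between genes.

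The samples were tumors grown from ZR751, an established human luminal breast cancer cell line, implanted under the skin of female NSG mice, which lack mature lymphocytes. Vehicle tumors came from 5 mice after 3 days of vehicle, which the treatment label gives as DMSO. Sensitive tumors came from 3 mice after 3 days of atirmociclib (PF-07220060), an oral inhibitor of the cell cycle kinase CDK4, at 60 mg/kg 2 times a day, 7 h apart. Resistant tumors came from 5 mice given the same dose for 84 to 91 days (2040 h on the label) in a separate study. No vehicle mice of that study are among the samples, so length of treatment, study and resistance cannot be told apart. Dosing began at about 150 mm3 and tumors were taken 3 h after the last dose. All the tumors derive from 1 cell line, and each mouse gave a library A and a library B, divided at a step that no label names.

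The labelled cell type was checked against its markers: all 8 luminal breast markers exceeded a mean of 1 TPM, and their sum was 7389 to 13760 TPM in a mouse. None of 7 adipocyte markers and none of 6 endothelial markers did so, and ADIPOQ, LEP and LPL were listed at 0 in every mouse. Other lists had genes above that level. These were 7 of 10 sebocyte, 3 of 6 basal epithelial, 3 of 8 macrophage, 1 of 8 fibroblast and 1 of 9 hepatocyte markers. Libraries A and B of a mouse correlated across genes at r = 0.9948 to 0.9972. Vehicle mouse 1-5 stood furthest from the other mice of its group, with a mean correlation of 0.9760 across 14079 genes against 0.9831 to 0.9877 for the other vehicle mice. The table holds no read counts, so the depth behind each value is unknown.

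The 160 symbols that the patterns matched left the 58 members after 80 genes below 0.5 TPM, 18 pseudogenes, 3 antisense genes and CYP51A1 were removed. Pseudogenes were recognised by their symbol, ending in P or in P and a number, with GSTP1 kept. Among those removed, RefSeq lists GSTTP1 (as GSTT4) and CYP3A7-CYP3AP1 as protein coding, both at 0 TPM. The member GSTT2 is a transcribed pseudogene there. The members were 20 cytochromes P450, 14 aldehyde dehydrogenases, 11 glutathione transferases, 6 sulfotransferases, 4 carboxylesterases and 3 aldo-keto reductases. None of the 19 UDP-glucuronosyltransferases, the enzymes of glucuronic acid coupling, reached the threshold, and 7 of them were listed at 0 in every library. CYP1A1, CYP3A4 and CYP19A1 (aromatase, which makes estrogens) had mean levels of 0.07, 0.01 and 0.02 TPM. The members just inside the threshold were CYP4X1 at 0.503 TPM and CYP2B6 at 0.588 TPM. Just outside it were UGT2B15 at 0.471 TPM and CYP4F11 at 0.452 TPM. UGT2B15, which couples androgens to glucuronic acid, was at 0 to 0.19 TPM in the vehicle mice, 0.04 to 0.085 TPM in the sensitive mice and 0.53 to 1.68 TPM in the resistant mice.

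Among the members, levels spanned from below 1 TPM to 1469 TPM in a mouse. ALDH3B2 was the highest, with 788 ± 386 TPM in vehicle tumors (SD, n = 5). The glutathione transferases GSTK1, of mitochondria and peroxisomes, and GSTT1, of the theta class, followed at 204 ± 41.05 and 157 ± 8.85 TPM (SD, n = 5). ALDH9A1, an enzyme of carnitine synthesis, was at 144 ± 8.11 TPM and AKR1A1, a general aldehyde reductase, at 94.2 ± 6.42 TPM (SD, n = 5). The cytochromes P450 were low beside them: their highest member, CYP2J2, stood at 43.98 ± 17.6 TPM (SD, n = 5). The 20 cytochromes P450 together summed to 93.6 to 187 TPM in a mouse, against 537 to 693 TPM for the 11 glutathione transferases. The members summed to 2353 ± 531 TPM in vehicle tumors (SD, n = 5), 1743 ± 210 TPM in sensitive tumors (SD, n = 3) and 1661 ± 90.4 TPM in resistant tumors (SD, n = 5). ALDH3B2 alone made up 26.5% to 44.7% of that sum in the vehicle mice and 7.72% to 18.3% in the resistant mice. Without ALDH3B2 the sum was 1438 to 1814 TPM in the vehicle mice and 1452 to 1515 TPM in the resistant mice.

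**Figure D1:**
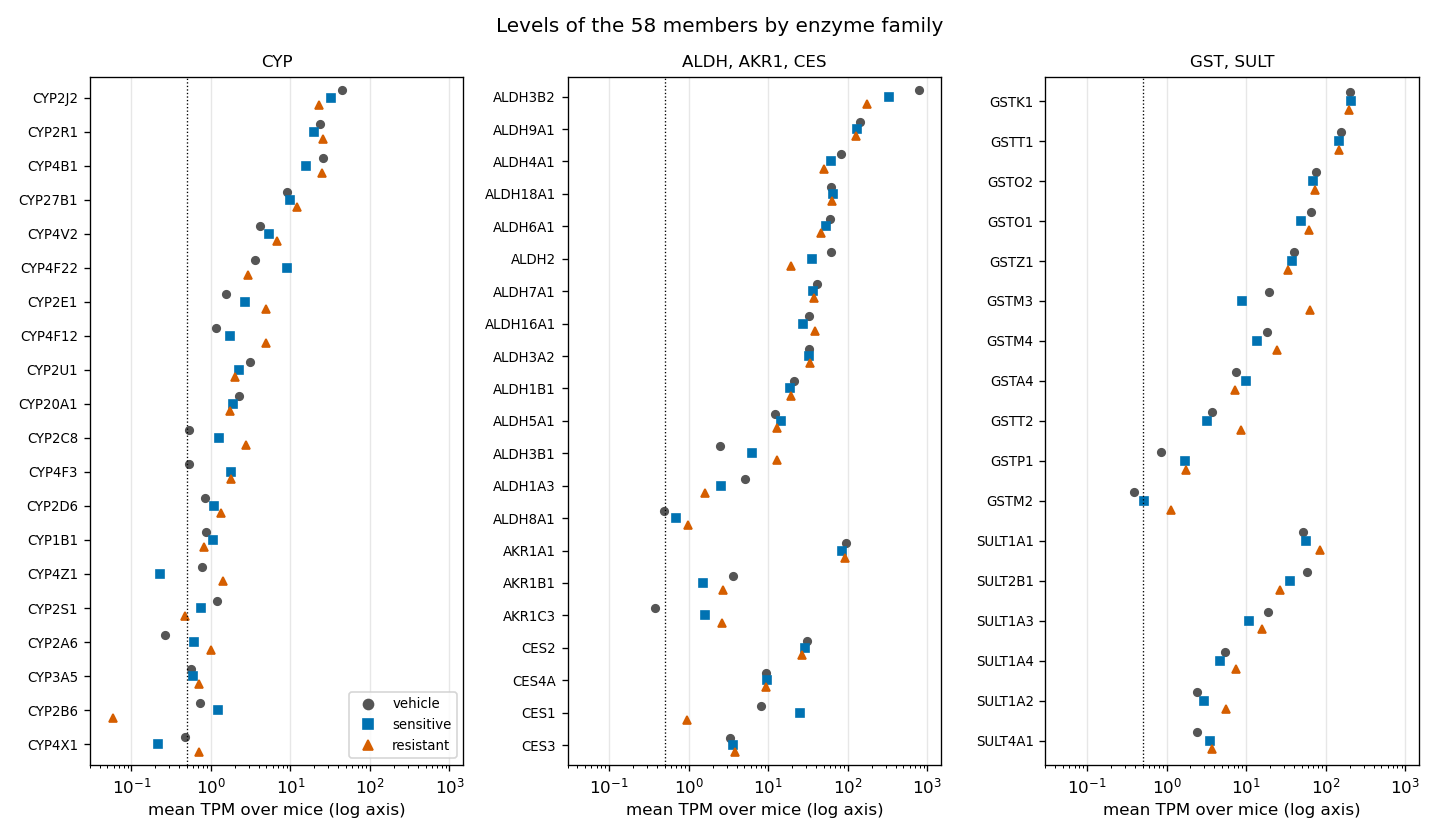
Mean TPM over mice (log axis) of the 58 members in vehicle (circles, 5 mice), sensitive (squares, 3 mice) and resistant tumors (triangles, 5 mice), in order of mean level within each enzyme family; the dotted line marks 0.5 TPM. ALDH3B2, ALDH2 and CES1 lie lower and ALDH3B1, GSTM3, CYP4F12 and AKR1C3 higher in resistant than in vehicle tumors, 7 of the 29 members called in that comparison. AKR1C3 passed the filter of the test only with the resistant mice.

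Of the 58 members, 54 passed the filter of the test (at least 1 TPM in at least 3 mice) and 41 had at least 1 TPM in all 13 mice. CYP2A6, CYP3A5, CYP4X1 and ALDH8A1 did not pass. CYP2S1 passed through the vehicle mice only. Another 6 (AKR1C3, CYP1B1, CYP2B6, CYP4F3, CYP4Z1 and GSTM2) would have failed without 1 of the groups, so that a difference in them is in part set by the filter. The mouse was the replicate, and each comparison was a contrast of 1 limma fit over all 14079 genes that passed. A gene was called at a Benjamini-Hochberg adjusted p under 0.05 over all of these genes. Changes are differences of log2(TPM + 1), given with their SE and relative to the median change of all genes, which was -0.07 (sensitive against vehicle), -0.05 (resistant against sensitive) and -0.14 (resistant against vehicle). The adjusted p tests the change before this median is taken off. The comparisons share mice: sensitive and resistant tumors were both set against the same vehicle mice.

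After 3 days of drug 4 of the 54 tested members were called, while 16 had an unadjusted p under 0.05. The share of all genes at that unadjusted p was not counted, so nothing is read from the 16. Of the 4, 1 was called higher in sensitive than in vehicle tumors (background 3.16% of all genes) and 3 were called lower (background 12.6%). The groups did not overlap for 7 of the 54 (background 21.7%). The median change of the 54 was 0.02, beside 0 over all genes. In resistant versus sensitive tumors 10 members were called higher (background 9.56%) and 4 lower (background 11.6%), with a median of 0.12, and the groups did not overlap for 18 (background 30.4%). In resistant versus vehicle tumors 16 were called higher (background 11.5%) and 13 lower (background 32.5%), with a median of 0.14, and the groups did not overlap for 19 (background 27.3%). Without the 7 members that needed 1 group to pass the filter, 13 were higher and 11 lower in resistant versus vehicle tumors. The split of the calls moved with the scaling of the libraries. In resistant versus vehicle tumors 55.2% of the called members were higher, against 67.9% after median-of-ratios scaling and 63% after quantile normalization, while over all genes the share was 26.2%, 51.3% and 45.6%. In sensitive versus vehicle tumors the share was 25% of 4 members, 66.7% of 6 and 83.3% of 6, and over all genes 20.1%, 42.1% and 48.7%. In resistant versus sensitive tumors it was 71.4%, 76.9% and 60%, and over all genes 45.2%, 56.3% and 44.7%.

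**Figure D2:**
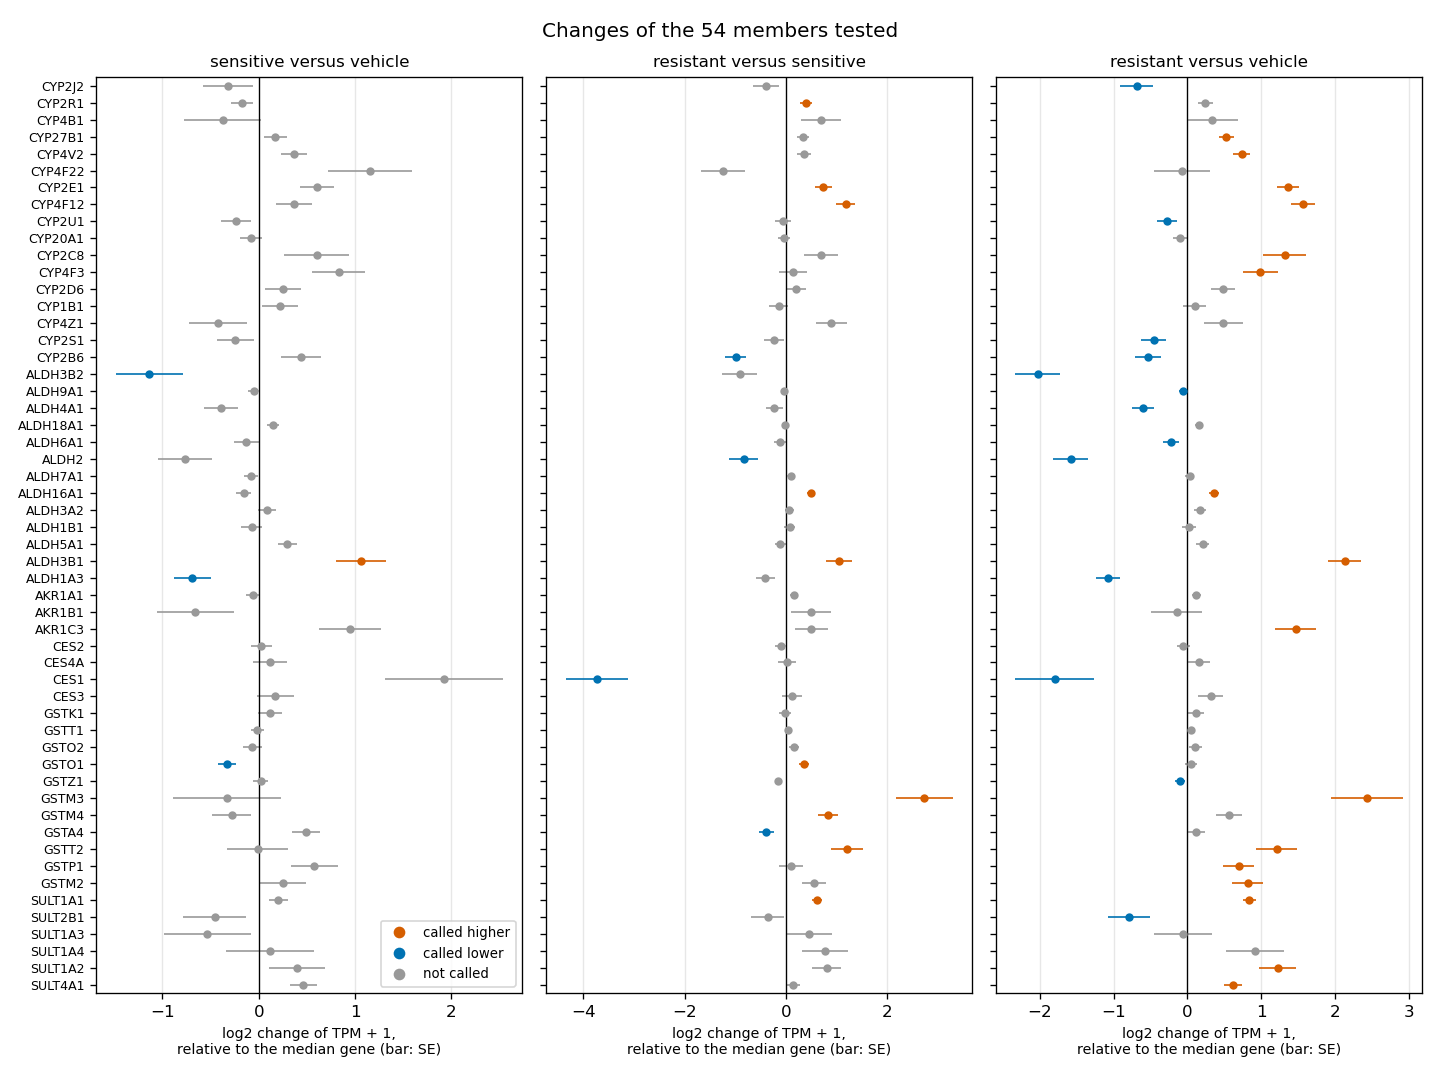
Change of the 54 tested members in the 3 comparisons, as the difference of log2(TPM + 1) relative to the median gene, with bars for the SE; orange was called higher, blue called lower and grey not called. In resistant versus sensitive tumors CES1 lies at -3.74 and GSTM3 at 2.74. In resistant versus vehicle tumors GSTM3 lies at 2.43, ALDH3B1 at 2.13 and ALDH3B2 at -2.03.

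The aldehyde dehydrogenases, which oxidize reactive aldehydes to acids, held 6 of the 13 members called lower in resistant tumors and 2 of the 16 called higher than vehicle. Of the 13 tested, 46.2% were thus called lower (background 32.5%) and 15.4% higher (background 11.5%). ALDH3B2 (chromosome 11) was at 682, 609, 1469, 518 and 662 TPM in the vehicle mice, 441, 234 and 305 TPM in the sensitive mice and 139.6, 149, 331, 129 and 127 TPM in the resistant mice. Every sensitive and resistant mouse lay below every vehicle mouse, mouse 1-5 was far above the other vehicle mice, and mouse 9-7 far above the other resistant mice. ALDH3B2 fell in sensitive versus vehicle tumors (-1.14 ± 0.35, adjusted p = 0.0308) and in resistant versus vehicle tumors (-2.03 ± 0.30, adjusted p = 1.08e-04). The first of these calls was lost without mouse 6-5 (adjusted p = 0.166), without mouse 6-6 (0.107), without mouse 1-9 (0.0502) and after quantile normalization (0.0544). Resistant versus sensitive tumors were not called (-0.91 ± 0.35, adjusted p = 0.0647), but were without mouse 1-5 (adjusted p = 0.0234) or mouse 9-7 (0.0141).

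ALDH3B1, a close relative of ALDH3B2 that oxidizes aldehydes from lipid peroxidation, moved the other way. It was at 2.83, 2.87, 1.69, 2.96 and 1.93 TPM in the vehicle mice, 2.82, 8.13 and 7.75 TPM in the sensitive mice and 17.2, 10.5, 10.97, 11.4 and 13.7 TPM in the resistant mice. The resistant mice all lay above the other mice, and among the sensitive mice 6-4 was within the vehicle range while 6-5 and 6-6 were above it. ALDH3B1 rose in sensitive versus vehicle tumors (1.06 ± 0.26, adjusted p = 0.0205), in resistant versus sensitive tumors (1.05 ± 0.26, adjusted p = 0.0153) and in resistant versus vehicle tumors (2.13 ± 0.22, adjusted p = 2.07e-05). Leaving out mouse 6-5 or mouse 6-6 ended the first call (adjusted p = 0.133 and 0.120), and leaving out mouse 6-4 ended the second (0.62 ± 0.20, adjusted p = 0.0714). The ratio of ALDH3B2 to ALDH3B1 was 175 to 872 in the vehicle mice, 28.8 to 156 in the sensitive mice and 8.12 to 30.2 in the resistant mice. In RefSeq on GRCh38.p14, ALDH3B2 spans chr11:67662155-67681252 and ALDH3B1 chr11:68008547-68029276, with 327.3 kb between them. Their GENCODE 29 transcripts share few sequences: 0.512% of the 50-base words of ALDH3B1 occur in ALDH3B2.

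ALDH2, the mitochondrial enzyme that clears acetaldehyde, was at 57.7, 63.3, 69.5, 47.3 and 73.8 TPM in the vehicle mice, 51.5, 25.9 and 29.4 TPM in the sensitive mice and 18.2, 13.99, 32.5, 20.2 and 11.2 TPM in the resistant mice. All resistant mice were below all vehicle mice, and the highest of them, 9-7, overlapped the sensitive mice. ALDH2 fell in resistant versus vehicle tumors (-1.58 ± 0.24, adjusted p = 1.20e-04). It was also called in resistant versus sensitive tumors (-0.84 ± 0.28, adjusted p = 0.0388), a call that ended without any 1 of mice 1-4, 6-4, 6-6, 9-3, 9-6 and 9-9 (adjusted p = 0.0512 to 0.207).

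ALDH1A3, which makes retinoic acid from retinaldehyde, was at 3.96, 4.56, 7.89, 4.63 and 4.58 TPM in the vehicle mice, 3.15, 1.86 and 2.73 TPM in the sensitive mice and 2.1, 1.3, 1.9, 1.35 and 1.38 TPM in the resistant mice. The vehicle mice lay above all the others, and mouse 1-5 was the highest. It fell in sensitive versus vehicle tumors (-0.69 ± 0.19, adjusted p = 0.0164), not so without mouse 6-5 (adjusted p = 0.114), and in resistant versus vehicle tumors (-1.07 ± 0.17, adjusted p = 9.29e-05).

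ALDH4A1, an enzyme of proline breakdown, was at 91.4, 91.97, 75.95, 70.6 and 85.1 TPM in the vehicle mice, 87.3, 47.4 and 51.4 TPM in the sensitive mice and 45.02, 45.6, 64.3, 47.7 and 46.4 TPM in the resistant mice. The resistant mice were below the vehicle mice, and the sensitive mouse 6-4 lay with the vehicle mice while 6-5 and 6-6 lay near the resistant mice. ALDH4A1 fell in resistant versus vehicle tumors (-0.60 ± 0.15, adjusted p = 0.00181). ALDH6A1, of valine breakdown, was 59.5 ± 4.23 TPM in vehicle and 46.4 ± 2.16 TPM in resistant tumors (SD, n = 5 each), with a change of -0.22 ± 0.11, adjusted p = 0.0192. ALDH9A1 was at 138, 140.2, 153, 137 and 154 TPM in the vehicle mice, 140.3, 133 and 123 TPM in the sensitive mice and 126, 127, 124, 122 and 129.7 TPM in the resistant mice. Its resistant mice lay below its vehicle mice, yet the change was small (-0.06 ± 0.05, adjusted p = 0.01). The calls of ALDH6A1 and ALDH9A1 ended after median-of-ratios scaling (adjusted p = 0.102 and 0.438) and quantile normalization (0.0796 and 0.108).

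ALDH16A1, an atypical member of the family, was at 32.2, 32.01, 36.97, 32.6 and 30.2 TPM in the vehicle mice, 29.1, 26.8 and 27.3 TPM in the sensitive mice and 39.97, 38.7, 36.1, 36.2 and 41.6 TPM in the resistant mice. The sensitive mice were below all other mice, and the resistant mice overlapped the vehicle mice only through mouse 1-5. ALDH16A1 rose in resistant versus sensitive tumors (0.50 ± 0.08, adjusted p = 0.0018) and in resistant versus vehicle tumors (0.36 ± 0.07, adjusted p = 0.0148). The other 5 tested members of the family were not called in any comparison. They were ALDH18A1 of proline synthesis, ALDH7A1 of lysine breakdown, ALDH3A2 of fatty aldehyde oxidation, ALDH1B1 of mitochondria and ALDH5A1 of the breakdown of the transmitter GABA. Their changes in resistant versus vehicle tumors ran from 0.02 for ALDH1B1 to 0.21 for ALDH5A1.

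**Figure D3:**
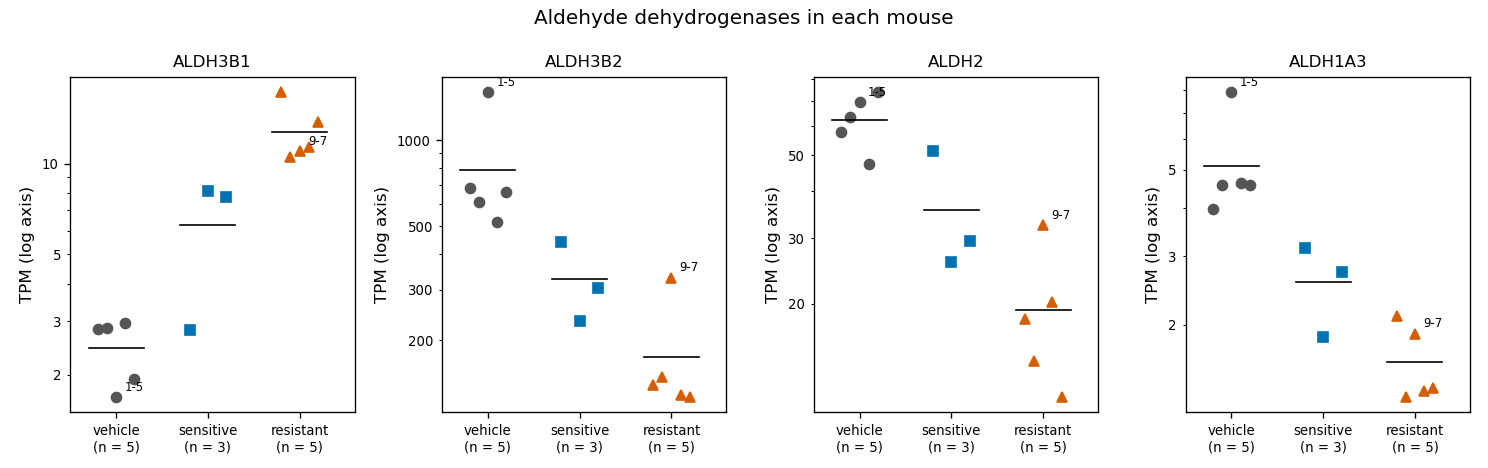
TPM (log axis) of 4 aldehyde dehydrogenases in each mouse, with a line at the mean of each group (5 vehicle, 3 sensitive and 5 resistant mice); mice 1-5 and 9-7 are marked. ALDH3B1 is highest in the 5 resistant mice, while ALDH3B2, ALDH2 and ALDH1A3 are lowest in resistant tumors on average, with mouse 9-7 the highest resistant mouse for ALDH3B2 and ALDH2.

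Carboxylesterases cut ester and amide bonds, which activates some prodrugs. CES1, the main form of liver, which also acts on cholesteryl esters and triglycerides, was at 1.41, 11.1, 1.67, 16.1 and 10.4 TPM in the vehicle mice, 28.4, 13.8 and 33.5 TPM in the sensitive mice and 0.4, 0.93, 2.73, 0.61 and 0.14 TPM in the resistant mice. Sensitive and resistant mice did not overlap, and in the vehicle group mice 1-2 and 1-5 were low, within the resistant range. CES1 fell in resistant versus sensitive tumors (-3.74 ± 0.61, adjusted p = 0.00132), which was the lowest change of the 14079 genes tested in that comparison. It also fell in resistant versus vehicle tumors (-1.80 ± 0.53, adjusted p = 0.00974), where the groups overlapped. The rise from vehicle to sensitive mice was not called (1.92 ± 0.61, adjusted p = 0.0551). It was called without mouse 1-6 (adjusted p = 0.0253), without mouse 1-4 (0.0484) and without mouse 9-7 (0.0491).

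In bulk tumors, fewer cells with a transcript and less of it per cell cannot be told apart. The marker lists of other cell types count human transcripts. The host's own cells are mouse cells, which these lists were not made to measure, and the labels do not say how host reads were treated. Of 9 hepatocyte markers only SERPINA1 exceeded a mean of 1 TPM, ALB stayed at or below 0.42 TPM, and APOA2 was listed at 0. The summed hepatocyte list was 41.7 to 95.1 TPM in vehicle, 96.1 to 178 TPM in sensitive and 166 to 627 TPM in resistant mice, nearly all of it SERPINA1. The summed macrophage list (3 of 8 genes above a mean of 1 TPM, led by CD68) was 3.12 to 7.25, 5.94 to 8.74 and 6.76 to 15.7 TPM in the same order of groups. The lists of basal epithelium and adipocytes were lower in resistant than in sensitive mice without overlap, as CES1 was. The basal list (3 of 6 genes above a mean of 1 TPM, led by KRT17) summed to 7.8 to 25.2, 17.2 to 34.3 and 6.68 to 8.91 TPM, and the adipocyte list (none of 7) to 1.06 to 2.18, 1.87 to 2.64 and 0.81 to 1.25 TPM. The fibroblast, endothelial and sebocyte lists summed to 5.76 to 8.26, 0.25 to 0.79 and 118 to 223 TPM in sensitive and to 4.44 to 10.5, 0.76 to 1.14 and 63.5 to 185 TPM in resistant mice. In vehicle mice they summed to 7.71 to 13.16, 0.315 to 0.74 and 66.93 to 248.1 TPM. The part of these lists in the CES1 result was not tested.

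CES2, the intestinal form that activates irinotecan, was at 24.98, 31.9, 35.3, 26.4 and 32.8 TPM in the vehicle mice, 31.2, 29.1 and 26.99 TPM in the sensitive mice and 26.9, 25.4, 23.8, 27.1 and 28.1 TPM in the resistant mice. The groups overlapped and it was not called (resistant versus vehicle -0.05 ± 0.09, adjusted p = 0.115), though it was without mouse 1-2 (adjusted p = 0.0364). CES4A, at 7.98, 10.2, 12.8, 6.08 and 10.4 TPM in the vehicle mice, 10.8, 8.71 and 9.21 TPM in the sensitive mice and 9.68, 9.04, 8.89, 11.4 and 8.14 TPM in the resistant mice, and CES3, at 1.83 to 4.66 TPM in a mouse, were not called either. So CES1 was the only one of the 4 carboxylesterases called with all mice. As a share of the 4 this was 25% lower in resistant versus sensitive tumors (background 11.6%). In resistant versus vehicle tumors it was also 25% lower (background 32.5%). A pseudogene copy, CES1P1, shares 29.5% of the 50-base words of the CES1 transcripts, and its own mean level was 0.0069 TPM.

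**Figure D4:**
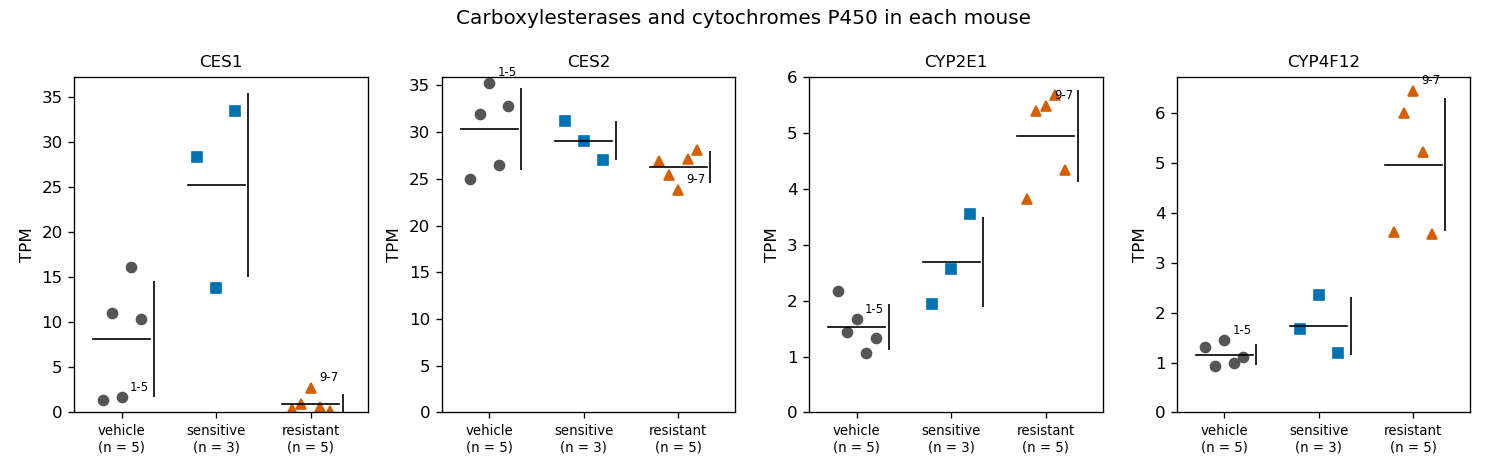
TPM of 2 carboxylesterases and 2 cytochromes P450 in each mouse, with a horizontal line at the group mean and a vertical bar for the SD (5 vehicle, 3 sensitive and 5 resistant mice). CES1 stays at or below 2.74 TPM in the resistant mice while CES2 hardly differs between groups, and CYP2E1 and CYP4F12 lie above the other mice in all 5 resistant mice.

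The cytochromes P450 are heme enzymes of the endoplasmic reticulum and mitochondria that insert oxygen into their substrates. Of the 17 tested, none was called in sensitive versus vehicle tumors with limma. An unadjusted p under 0.05 was found for 3 of them, a count with no background. In resistant versus vehicle tumors 6 (35.3%, background 11.5%) were called higher and 4 (23.5%, background 32.5%) lower. These counts include CYP4F3 among the higher and CYP2B6 and CYP2S1 among the lower, which passed the filter only through groups where they were higher. CYP2J2, an epoxygenase of arachidonic acid and the highest P450 by mean level in vehicle and sensitive tumors but not in resistant tumors, where CYP2R1 was higher, was at 25.7, 41.9, 68.1, 29.7 and 54.5 TPM in the vehicle mice, 42.3, 29.3 and 24.6 TPM in the sensitive mice and 22.6, 20.6, 22.3, 25.5 and 23.6 TPM in the resistant mice. All resistant mice were below all vehicle mice, and mice 1-5 and 1-9 stood above the others. CYP2J2 fell in resistant versus vehicle tumors (-0.69 ± 0.22, adjusted p = 0.00917).

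CYP4V2, a fatty acid hydroxylase of the retina and other tissues, was at 5.37, 3.88, 3.69, 4.53 and 3.44 TPM in the vehicle mice, 4.3, 6.21 and 5.45 TPM in the sensitive mice and 7.12, 6.62, 6.005, 7.51 and 6.8 TPM in the resistant mice. All resistant mice lay above all vehicle mice, and it rose (0.74 ± 0.12, adjusted p = 0.00128). CYP4F12, another fatty acid hydroxylase, was at 1.31, 0.94, 1.45, 0.98 and 1.11 TPM in the vehicle mice, 1.67, 2.35 and 1.2 TPM in the sensitive mice and 3.61, 5.995, 6.45, 5.21 and 3.58 TPM in the resistant mice. The resistant mice were above all the others, with a rise of 1.57 ± 0.16, adjusted p = 2.25e-05 over vehicle and 1.19 ± 0.19, adjusted p = 0.00144 over sensitive tumors. CYP2E1, which oxidizes ethanol and small solvents, was at 2.17, 1.45, 1.67, 1.06 and 1.34 TPM in the vehicle mice, 1.95, 2.58 and 3.54 TPM in the sensitive mice and 3.81, 5.39, 5.49, 5.69 and 4.34 TPM in the resistant mice. The resistant mice again lay above all the others, with 1.37 ± 0.15, adjusted p = 3.97e-05 against vehicle and 0.74 ± 0.17, adjusted p = 0.0132 against sensitive tumors. Leaving out mouse 6-4 or mouse 6-5 ended the second of these CYP2E1 calls (adjusted p = 0.0766 and 0.0513).

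The vitamin D enzymes were both present. CYP2R1, which makes the circulating form of the vitamin, was at 22.7, 24.9, 25.4, 18.8 and 26.2 TPM in the vehicle mice, 20.5, 18 and 20.2 TPM in the sensitive mice and 22.3, 24.5, 23.6, 26.02 and 30.5 TPM in the resistant mice. All resistant mice lay above all sensitive mice, and it was called higher in resistant versus sensitive tumors (0.40 ± 0.12, adjusted p = 0.0447), a call that ended without any 1 of 9 mice (1-2, 1-4, 6-4, 6-5, 6-6, 9-6, 9-7, 9-8 or 9-9, adjusted p = 0.0530 to 0.166). CYP27B1, which makes the active hormone, was 9.17 ± 1.6 TPM in vehicle and 12.2 ± 0.97 TPM in resistant tumors (SD, n = 5 each). Its groups overlapped, and it rose (0.53 ± 0.10, adjusted p = 0.0083), a call that ended with B libraries alone (0.40, adjusted p = 0.0520). CYP24A1, which inactivates the hormone, was at a mean of 0.011 TPM and was not a member.

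The remaining called P450 genes were low. CYP2C8, which oxidizes paclitaxel, was 0.22 to 1.02 TPM in vehicle and 1.17 to 6.29 TPM in resistant mice, which did not overlap (1.32 ± 0.30, adjusted p = 0.00587). CYP4F3, which inactivates leukotriene B, was 0.23 to 0.91 TPM in vehicle and 1.17 to 2.38 TPM in resistant mice (0.99 ± 0.24, adjusted p = 0.011). It passed the filter only with the resistant mice, where it was above vehicle, so this call is in part set by the filter. CYP2B6, which activates cyclophosphamide, was 0.33 to 1.52 TPM in vehicle, 0.65 to 1.68 TPM in sensitive and 0 to 0.11 TPM in resistant mice. It fell in resistant versus sensitive tumors (-0.99 ± 0.21, adjusted p = 0.00445) and in resistant versus vehicle tumors (-0.53 ± 0.18, adjusted p = 0.00853), with no overlap in either. CYP2B6 passed the filter only with the vehicle and sensitive mice together, where it was higher, so both calls are in part set by the filter. Beside it the pseudogene CYP2B7P1 was at a mean of 67.8 TPM, and 7.74% of the 50-base words of CYP2B6 also occur in it, so the low CYP2B6 values are uncertain. CYP2S1, an extrahepatic form, was at 0.78 to 1.66 TPM in vehicle, 0.56 to 0.91 TPM in sensitive and 0.15 to 0.96 TPM in resistant mice. It is counted among the members called lower, but since it passed the filter through the vehicle mice only, where it is highest, nothing is read from that call. CYP2U1, a fatty acid hydroxylase, fell in resistant versus vehicle tumors (-0.27 ± 0.14, adjusted p = 0.0245). The CYP2U1 call ended after median-of-ratios scaling (adjusted p = 0.0910) and without mouse 1-2, 1-4, 1-6, 9-6 or 9-8 (0.0514 to 0.0605).

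The P450 genes that were not called include CYP4B1, at 14.2, 18, 61.3, 11.97 and 21.4 TPM in the vehicle mice, 19.8, 15.6 and 11.2 TPM in the sensitive mice and 24.6, 33.9, 16.2, 26.1 and 24.4 TPM in the resistant mice. Mouse 1-5 stood above every other mouse, and without it CYP4B1 was called higher in resistant versus vehicle tumors (0.71 ± 0.21, adjusted p = 0.0389). CYP4F22, which makes skin ceramides, was at 1.6 to 6.59 TPM in vehicle, 3.68 to 14.2 TPM in sensitive and 1.55 to 6.3 TPM in resistant mice (resistant versus sensitive -1.24 ± 0.44, adjusted p = 0.051). It was called lower in that comparison without mouse 1-2 (adjusted p = 0.0489), 1-5 (0.0345), 6-4 (0.0253) or 9-6 (0.0258) and after quantile normalization (0.0448). CYP1B1, which hydroxylates estrogens and is a target of the dioxin receptor, stayed at 0.395 to 1.53 TPM in a mouse. CYP4Z1 and CYP2D6 have near copies at higher levels, CYP4Z2P at 3.41 TPM and CYP2D7P1 at 2.37 TPM. These copies hold 30.6% and 31.9% of the 50-base words of the 2 genes, so their levels of 0.78 and 0.84 TPM in vehicle tumors are uncertain. CYP20A1, whose substrates are not known, completes the 17, at 1.58 to 2.61 TPM in a mouse.

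The aldo-keto reductases reduce aldehydes and ketones to alcohols. AKR1A1 was at 86.4, 89.5, 103, 97.1 and 94.99 TPM in the vehicle mice, 92.5, 81.4 and 83.5 TPM in the sensitive mice and 92.2, 92.1, 95.8, 86.3 and 98.8 TPM in the resistant mice, with overlapping groups and no call. AKR1B1, aldose reductase, was at 6.17, 2.92, 0.82, 5.54 and 2.5 TPM in the vehicle mice, 1.46, 1.2 and 1.84 TPM in the sensitive mice and 1.5, 2.58, 5.8, 2.12 and 1.51 TPM in the resistant mice, scattered within the vehicle group from mouse 1-5 to mouse 1-2, and was not called, though without mouse 1-5 it was lower in sensitive than in vehicle tumors (adjusted p = 0.0480). AKR1C3, which makes testosterone and estradiol from their ketone precursors, was at 0.69, 0.2, 0.2, 0.61 and 0.17 TPM in the vehicle mice, 0.52, 2.02 and 2.29 TPM in the sensitive mice and 3.04, 3.99, 3.56, 1.65 and 0.88 TPM in the resistant mice. All resistant mice lay above all vehicle mice, and it rose (1.47 ± 0.28, adjusted p = 0.00196). AKR1C3 passed the filter only with the resistant mice, where it was highest, so this call is in part set by the filter. AKR1C1 and AKR1C2 were at 0.041 and 0.065 TPM.

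Glutathione transferases couple glutathione to electrophiles. The mu class genes GSTM4, GSTM2 and GSTM3 lie in 1 cluster of 84.9 kb on chromosome 1. Their windows run from 250 bases before to 50 bases after the start. They are shown because the 3 genes were highest in the same mice, GSTM2 by a small margin. The sequences are from RefSeq on GRCh38.p14, 5′ to 3′ on the strand of the gene. Capitals mark the dioxin response core GCGTG, searched on both strands (CACGC where it lies on the other strand).
GSTM4, chr1:109655849-109656148, plus strand: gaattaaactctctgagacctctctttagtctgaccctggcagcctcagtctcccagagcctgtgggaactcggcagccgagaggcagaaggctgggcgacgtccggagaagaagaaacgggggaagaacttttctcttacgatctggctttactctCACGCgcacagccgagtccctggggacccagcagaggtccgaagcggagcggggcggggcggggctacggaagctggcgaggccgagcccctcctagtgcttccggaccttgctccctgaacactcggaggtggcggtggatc
GSTM2, chr1:109667807-109668106, plus strand: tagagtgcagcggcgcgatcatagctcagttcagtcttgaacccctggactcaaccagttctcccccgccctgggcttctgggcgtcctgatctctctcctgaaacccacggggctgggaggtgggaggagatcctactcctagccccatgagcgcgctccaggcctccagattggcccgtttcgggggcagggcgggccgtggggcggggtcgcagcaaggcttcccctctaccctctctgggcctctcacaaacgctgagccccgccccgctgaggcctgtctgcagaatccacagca
GSTM3, chr1:109740989-109741288, minus strand: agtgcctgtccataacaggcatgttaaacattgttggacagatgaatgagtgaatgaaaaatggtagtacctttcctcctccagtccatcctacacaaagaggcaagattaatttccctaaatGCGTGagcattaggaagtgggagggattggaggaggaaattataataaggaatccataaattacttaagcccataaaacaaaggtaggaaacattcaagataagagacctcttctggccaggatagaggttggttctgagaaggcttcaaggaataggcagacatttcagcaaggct
The core was found 1 time each in the GSTM4 and GSTM3 windows and not in the GSTM2 window. It occurs in 36.5% of 35114 promoter windows of this length and in 19 of the 56 windows found for 44 of the 58 members (33.9%). The antioxidant response core TGACNNNGC, also searched on both strands, was in none of the 3, in 13.3% of all windows and in 6 of the 56 (10.7%). The GSTM4 and GSTM2 windows hold 21 and 17 CpG sites, and the GSTM3 window holds 1, beside a median of 14 over all windows. A match describes letters in a window and not a site in use.

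GSTM3, a form known from brain and testis, was at 9.23, 6.36, 66.95, 9.98 and 5.15 TPM in the vehicle mice, 9.71, 7.99 and 8.72 TPM in the sensitive mice and 49.1, 84.5, 56.9, 55.8 and 67.3 TPM in the resistant mice. The resistant mice and vehicle mouse 1-5 were high, and all the other mice were at or below 9.98 TPM. GSTM3 rose in resistant versus sensitive tumors (2.74 ± 0.56, adjusted p = 0.0054) and in resistant versus vehicle tumors (2.43 ± 0.49, adjusted p = 0.00212). Without mouse 1-5 the latter change was 3.03 ± 0.18 with an adjusted p of 2.10e-07, and the other 4 vehicle mice were at 7.68 ± 2.3 TPM (SD, n = 4).

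GSTM4, a widely expressed form, was at 15.6, 15.8, 30.5, 13.4 and 17.7 TPM in the vehicle mice, 16.3, 12.9 and 12.04 TPM in the sensitive mice and 20.7, 25.9, 25.9, 24.2 and 24.9 TPM in the resistant mice. The same 6 mice were the highest, and mouse 1-5 exceeded the resistant mice. GSTM4 rose in resistant versus sensitive tumors (0.83 ± 0.20, adjusted p = 0.0149). Leaving out mouse 6-5 or mouse 6-6 ended that call (adjusted p = 0.0602 and 0.0590). Against vehicle it was not called (0.56 ± 0.17, adjusted p = 0.0578), but was without mouse 1-5 (0.74 ± 0.11, adjusted p = 6.99e-04), after median-of-ratios scaling (0.0131), after quantile normalization (0.00917), with weights per mouse (0.00578) and with B libraries alone (0.0136).

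GSTM2, the muscle form, was at 0.18, 0.2, 1.3, 0.075 and 0.17 TPM in the vehicle mice, 0.67, 0.81 and 0.095 TPM in the sensitive mice and 1.05, 0.83, 0.96, 1.73 and 1.14 TPM in the resistant mice. All resistant mice were above all sensitive mice and overlapped the vehicle mice only through 1-5. It rose in resistant versus vehicle tumors (0.82 ± 0.21, adjusted p = 0.0168). GSTM2 passed the filter only with the resistant mice, where it was higher on average, so this call is in part set by the filter. Summed over the 3 genes, the resistant mice held 70.9 to 111 TPM, mouse 1-5 held 98.7 TPM, and the 7 other mice held 20.9 to 26.7 TPM. GSTM4 and GSTM2 transcripts share some sequence (5.26% of the 50-base words of GSTM2), and GSTM3 shares none with GSTM4. GSTM1 and GSTM5 of the same cluster were at 0.05 and 0 TPM.

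**Figure D5:**
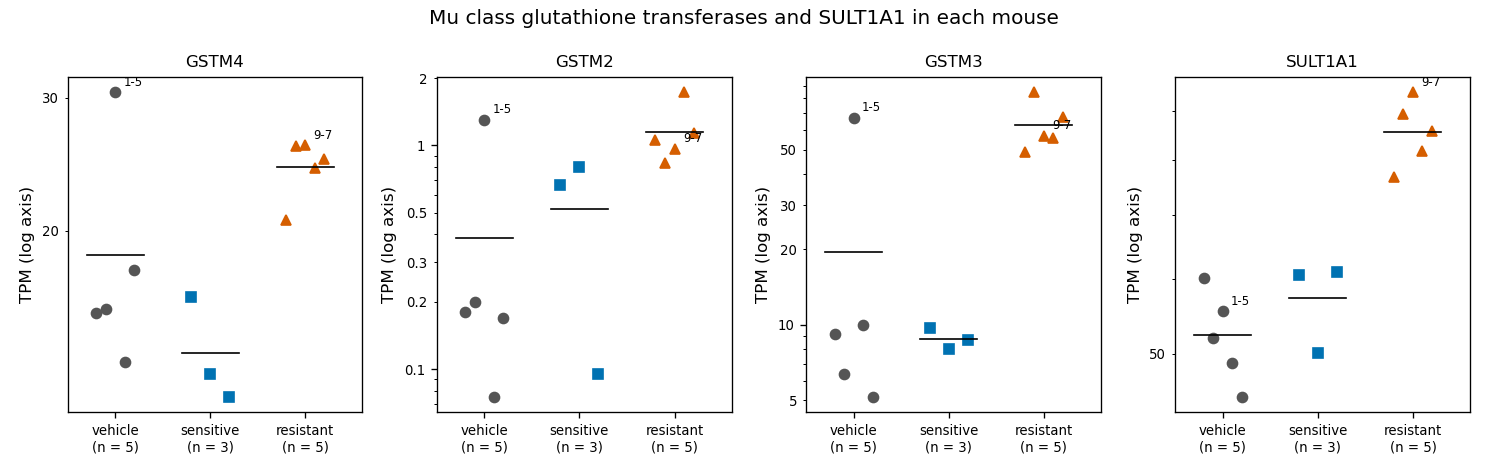
TPM (log axis) of the 3 mu class glutathione transferases and of SULT1A1 in each mouse, with a line at the group mean (5 vehicle, 3 sensitive and 5 resistant mice); mice 1-5 and 9-7 are marked. Vehicle mouse 1-5 lies with the resistant mice for GSTM4, GSTM2 and GSTM3 and with the vehicle mice for SULT1A1.

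GSTT2, of the theta class, was at 5.89, 4.55, 1.6, 4.3 and 2.12 TPM in the vehicle mice, 3.42, 2.27 and 3.85 TPM in the sensitive mice and 6.58, 8.04, 13.8, 5.58 and 8.77 TPM in the resistant mice. The resistant mice were above the sensitive mice and overlapped the vehicle mice through 1-2. GSTT2 rose in resistant versus sensitive tumors (1.2 ± 0.32, adjusted p = 0.0209), which was lost when mouse 6-4 or mouse 6-5 was left out (adjusted p = 0.0580 and 0.0968), and in resistant versus vehicle tumors (1.21 ± 0.28, adjusted p = 0.0067). RefSeq lists it as a transcribed pseudogene, and its copy GSTT2B, not analysed here, holds 81.1% of its 50-base words, so the level is uncertain. GSTO1, of the omega class, which reduces dehydroascorbate, was at 70.9, 57.8, 57.5, 78.2 and 65.2 TPM in the vehicle mice, 46.6, 49.2 and 53.1 TPM in the sensitive mice and 64.8, 61.9, 57.8, 62.98 and 61.6 TPM in the resistant mice. The sensitive mice lay below all the others. GSTO1 fell in sensitive versus vehicle tumors (-0.33 ± 0.10, adjusted p = 0.0126), which was not called after median-of-ratios scaling (adjusted p = 0.0946), after quantile normalization (0.108) or without mouse 6-5 (0.0589). It was called higher in resistant versus sensitive tumors (0.36 ± 0.10, adjusted p = 0.0319). This ended after quantile normalization (0.0561) and without mouse 6-4, 6-5, 9-3, 9-6 or 9-8 (0.0533 to 0.131).

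GSTA4, which conjugates the lipid peroxidation product hydroxynonenal, was at 6.34, 8.88, 5.49, 7.7 and 8.75 TPM in the vehicle mice, 9.8, 9.15 and 11.3 TPM in the sensitive mice and 7.36, 8.61, 6.28, 6.42 and 7.75 TPM in the resistant mice. The sensitive mice lay above all the others, and it was called lower in resistant versus sensitive tumors (-0.39 ± 0.14, adjusted p = 0.048). That call ended without any 1 of mice 1-2, 1-6, 6-4, 6-5, 6-6, 9-3, 9-7, 9-8 and 9-9 (adjusted p = 0.0518 to 0.167), and after median-of-ratios scaling (0.0810). GSTP1, the pi form, was low, at 0.52 to 1.03 TPM in vehicle and 1.07 to 2.89 TPM in resistant mice, which did not overlap (0.70 ± 0.21, adjusted p = 0.0443). Its call ended without any 1 of mice 1-2, 1-4, 1-5, 1-9, 6-6, 9-6, 9-7, 9-8 and 9-9 (0.0514 to 0.109). GSTZ1, an enzyme of tyrosine breakdown, was 39.6 ± 2.54 TPM in vehicle and 33.3 ± 2.25 TPM in resistant tumors (SD, n = 5 each). Its call (-0.10 ± 0.07, adjusted p = 0.0111) ended after median-of-ratios scaling (0.318) and quantile normalization (0.281), and its change was -0.07 without mouse 1-6 and -0.06 without mouse 9-7.

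The most abundant glutathione transferases did not pass the test. GSTK1 was at 161, 203, 263, 171 and 222 TPM in the vehicle mice, 225, 204 and 194 TPM in the sensitive mice and 192, 193, 192, 212 and 201 TPM in the resistant mice, with overlapping groups (0.11 ± 0.11, adjusted p = 0.884 in resistant versus vehicle). GSTT1 was at 152, 163, 167, 145 and 158 TPM in the vehicle mice, 157, 139.6 and 146 TPM in the sensitive mice and 139, 147, 143, 151 and 158 TPM in the resistant mice, also overlapping (0.05 ± 0.06, adjusted p = 0.239). GSTO2, the other omega form, stayed at 61.4 to 83.8 TPM in a mouse.

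Sulfotransferases transfer sulfate to phenols, steroids and catecholamines. SULT1A1, the main phenol form, which also takes estrogens and hydroxytamoxifen, was at 60.1, 51.97, 55.4, 48.9 and 45.03 TPM in the vehicle mice, 60.5, 50.1 and 61.02 TPM in the sensitive mice and 76.6, 89.4, 94.2, 81.7 and 85.7 TPM in the resistant mice. Every resistant mouse was above every other mouse, and SULT1A1 rose in resistant versus sensitive tumors (0.62 ± 0.10, adjusted p = 0.00204) and in resistant versus vehicle tumors (0.84 ± 0.09, adjusted p = 4.24e-05). SULT1A2, its neighbour on chromosome 16, was at 2.58, 1.62, 5.39, 1.15 and 1.34 TPM in the vehicle mice, 2.21, 2.98 and 3.67 TPM in the sensitive mice and 5.66, 7.14, 6.12, 4.29 and 4.91 TPM in the resistant mice. The resistant mice were above the sensitive mice and overlapped the vehicle mice only through 1-5, with a rise of 1.23 ± 0.25, adjusted p = 0.0036 over vehicle. Of the 50-base words of SULT1A2, 19% also occur in SULT1A1, so part of its reads may belong to SULT1A1.

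SULT2B1, which sulfates cholesterol and hydroxysteroids, was at 30.2, 48.3, 114, 32.6 and 64.9 TPM in the vehicle mice, 45.2, 31.4 and 30.7 TPM in the sensitive mice and 20, 27.3, 26.02, 29.6 and 30.9 TPM in the resistant mice. The groups overlapped and mouse 1-5 was the highest. SULT2B1 fell in resistant versus vehicle tumors (-0.80 ± 0.28, adjusted p = 0.0174), by less without mouse 1-5 (-0.52 ± 0.20, adjusted p = 0.0212). SULT4A1, known from brain, was 2.4 ± 0.22 TPM in vehicle and 3.76 ± 0.51 TPM in resistant tumors (SD, n = 5 each), which did not overlap (0.62 ± 0.12, adjusted p = 0.00537).

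SULT1A3 and SULT1A4, which sulfate dopamine, are near-identical copies on chromosome 16. Their promoter windows in RefSeq are the same in all 300 bases, and 96.8% of the 50-base words of SULT1A4 occur in SULT1A3. Libraries A and B of a mouse disagreed on them: SULT1A4 had a median difference of 1.81 on the log2(TPM + 1) scale, against a median of 0.129 over the members. Neither was called, though SULT1A4 was in resistant versus vehicle tumors without mouse 1-5 (adjusted p = 0.0330). Their sum, a quantity chosen after the values were seen and not tested, was 27.5, 24.5, 21.9, 25.3 and 21.3 TPM in the vehicle mice, 13.5, 17.0 and 15.9 TPM in the sensitive mice and 21.0, 22.6, 23.3, 28.9 and 21.6 TPM in the resistant mice. The sensitive mice were below all the others.

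Genes that work with these enzymes were taken from 4 lists, which were chosen with earlier results of these data known. Of the 18 tested receptors, partners and regulators that sense xenobiotics, 4 (22.2%, background 11.5%) were called higher and 9 (50%, background 32.5%) lower in resistant versus vehicle tumors, with a median change of -0.10. AHR, the dioxin receptor, was 7.96 ± 1.1 TPM in vehicle tumors (SD, n = 5), 6.33 ± 0.48 TPM in sensitive tumors (SD, n = 3) and 12.96 ± 2.25 TPM in resistant tumors (SD, n = 5). It rose in resistant versus sensitive (0.96 ± 0.13, adjusted p = 6.43e-04) and in resistant versus vehicle tumors (0.77 ± 0.11, adjusted p = 6.85e-04), and the resistant mice did not overlap the others. TIPARP, a target gene and repressor of AHR, was at 11.96 ± 2.42, 18.2 ± 4.35 and 41.9 ± 9.8 TPM (SD, n = 5, 3 and 5). It rose in resistant versus vehicle tumors (1.85 ± 0.17, adjusted p = 7.82e-06) and in resistant versus sensitive tumors (1.21 ± 0.20, adjusted p = 0.00181). Of other AHR targets, CYP1A1 stayed below the threshold, and CYP1B1 was not called (resistant versus vehicle 0.10 ± 0.16, adjusted p = 0.866). ARNT, the partner of AHR, fell in resistant versus vehicle tumors (-0.40 ± 0.08, adjusted p = 1.34e-04).

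RXRA, the shared partner of nuclear receptors, fell in resistant versus vehicle tumors (-0.53 ± 0.09, adjusted p = 6.54e-05). The drug receptor NR1I3 was at 0.79 to 1.51 TPM in vehicle and 0.33 to 1.16 TPM in resistant mice and was not called, and NR1I2 was at most 0.17 TPM. NFE2L2, the antioxidant regulator NRF2, fell in resistant versus vehicle tumors (-0.36 ± 0.10, adjusted p = 0.00126), and so did its inhibitor KEAP1 (-0.26 ± 0.07, adjusted p = 7.31e-04). Of 19 tested NRF2 targets 4 were called higher and 4 lower in that comparison (21.1% each, background 11.5% and 32.5%), with a median of 0.23. OSGIN1 rose most, from 3.04 ± 1.34 TPM to 41.02 ± 17.3 TPM (SD, n = 5 each, 3.45 ± 0.40, adjusted p = 3.64e-05), while NQO1, a standard target, was not called (0.26 ± 0.09, adjusted p = 0.299).

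Of 26 tested electron donors and other phase I enzymes, 3 (11.5%, background 11.5%) were called higher and 7 (26.9%, background 32.5%) lower in resistant versus vehicle tumors, with a median of 0.06. POR, the reductase that supplies electrons to the microsomal P450 enzymes, was 47.5 ± 5.15 TPM in vehicle, 47.3 ± 3.08 TPM in sensitive and 35.7 ± 3.59 TPM in resistant tumors (SD, n = 5, 3 and 5). It fell in resistant versus vehicle tumors (-0.26 ± 0.09, adjusted p = 0.00286). DHRS2, a carbonyl reductase, was 1.53 ± 0.66 TPM in sensitive (SD, n = 3) and 15.2 ± 4.39 TPM in resistant tumors (SD, n = 5), a rise of 2.73 ± 0.38, adjusted p = 6.11e-04. DHRS2 was also called in sensitive versus vehicle tumors. The rise of 2.73 is thus counted from the sensitive level and does not say how resistant tumors compare with vehicle. Of 29 tested conjugation partners 3 (10.3%, background 11.5%) were called higher and 7 (24.1%, background 32.5%) lower in resistant versus vehicle tumors, with a median of 0.13. MGST1, a microsomal glutathione transferase outside the families of the rule, was 6.91 to 20.2 TPM in sensitive and 0.56 to 1.48 TPM in resistant mice (-2.69 ± 0.48, adjusted p = 0.00204). UGT3A2, a glycosyltransferase that uses other sugars than glucuronic acid, fell from 7.06 ± 2.09 TPM in vehicle to 0.51 ± 0.24 TPM in resistant tumors (SD, n = 5 each, -2.25 ± 0.18, adjusted p = 9.14e-07). ABCC3, an exporter of conjugates, rose in resistant versus vehicle tumors (1.80 ± 0.26, adjusted p = 2.44e-04). GSR, which regenerates glutathione, fell in resistant versus vehicle tumors (-0.79 ± 0.13, adjusted p = 1.08e-04).

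The calls differed in how far they held over the 28 fits run. In resistant versus vehicle tumors 22 of the 29 called members were called in every fit that tested them. Among the 22 are CYP2S1, AKR1C3, CYP2B6, CYP4F3 and GSTM2, which passed the filter only with the help of a group. Fits that did not test a member could not end its call and are not in these counts. CYP2S1 and CYP2B6 each reached 1 TPM in only 3 mice, so the fits without 1 of those mice did not test them. In resistant versus sensitive tumors 6 of 14 held in every such fit (ALDH16A1, CES1, CYP4F12, GSTM3, SULT1A1 and, with the limit just given, CYP2B6). In sensitive versus vehicle tumors 0 of 4 did. The same share over all called genes was not counted, so these counts have no background. With 3 sensitive mice this comparison turned on single animals. Without mouse 6-5 limma called 0 members, without mouse 6-6 it called 2, and without mouse 6-4 it called 13. An unadjusted p under 0.05 was left for 10 members without mouse 6-5, again with no background. The 9 called without mouse 6-4 and not with all mice were AKR1C3, ALDH2, ALDH4A1, ALDH6A1, CYP2E1, CYP4F22, CYP4F3, GSTP1 and SULT4A1, with adjusted p = 0.00368 to 0.0309 without that mouse. Mouse 6-4 lay inside the vehicle range for ALDH3B1, ALDH4A1, AKR1C3, CYP4F22, CYP4F3 and GSTP1, while 6-5 and 6-6 lay outside it on the same side as each other. Leaving out mouse 1-5 added calls of ALDH1A3 (adjusted p = 0.0412) and SULT1A2 (0.0118) in resistant versus sensitive tumors, beside those of ALDH3B2 and CYP4F22 given above, and of CYP2U1 (0.0224) in sensitive versus vehicle tumors. Some calls also ended with 1 library per mouse. With A libraries alone these were CYP2E1 (adjusted p = 0.0672), CYP2R1 (0.0838), GSTA4 (0.294), GSTM4 (0.0769) and GSTO1 (0.102) in resistant versus sensitive, GSTO1 (0.0896) in sensitive versus vehicle and GSTP1 (0.0645) in resistant versus vehicle tumors. With B libraries alone they were, besides CYP27B1, ALDH3B1 (0.0537) in sensitive versus vehicle, CYP2R1 (0.0592) in resistant versus sensitive, and ALDH6A1 (0.0645), CYP2U1 (0.0841) and GSTP1 (0.0812) in resistant versus vehicle tumors. Without a filter on low values, the calls of ALDH2 (0.0680), CYP2R1 (0.0622) and GSTA4 (0.0776) in resistant versus sensitive, ALDH3B2 (0.0598) in sensitive versus vehicle and GSTP1 (0.0644) in resistant versus vehicle tumors ended. SULT4A1 in resistant versus vehicle tumors was not called over the 26 libraries (0.0505). In sensitive versus vehicle tumors GSTA4 and SULT4A1, like CYP2E1, gained a call as higher under both other scalings. Their adjusted p was 0.0423 and 0.0408 after median-of-ratios scaling and 0.027 and 0.03 after quantile normalization.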

How the data were processed

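The deposited table gives TPM for 26 libraries of 13 mice, as made by the authors. FastQC, STAR, RSEM and HTSeq appear in the submitters' processing notes beside the human build GRCh38 and the mouse build GRCm38, with no version or order. How reads of the host were removed is not stated there. The 1 entry without a gene name was left out.

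The members and gene lists were chosen with earlier results of these data known. Libraries A and B were averaged as log2(TPM + 1), genes with at least 1 TPM in at least 3 mice were kept, and 1 limma fit with the trend option (limma 3.58.1, R 4.3.3) covered the 13 mice and was tested on simulated data. Tests were two-sided, with Benjamini-Hochberg adjustment over all genes of a comparison. Every member is named. Values in every mouse are given for called members whose higher group averages at least 5 TPM, up to 6 per comparison and direction, and for the 2 highest members of each family. A few others were given in full after their values were seen. Of the partner lists AHR, ARNT, NFE2L2, KEAP1, NR1I2, NR1I3, RXRA and POR are named, with some of the others that were called. Positions and promoter windows are from RefSeq on GRCh38.p14, and shared words from GENCODE 29 transcripts. Alternatives covered the pseudocount, the filter, the scaling, weights per mouse, A or B libraries alone, all libraries with the mouse as a random effect and each mouse left out. The replicate letters A and B were entered as a block in 1 of them.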

Additional observations from a re-analysis of the deposited data

Results flagged for a closer look

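In groups of 5 mice, 14 member levels had a highest or lowest mouse whose gap to the nearest other mouse was above Dixon's critical value of 0.71 of the group's range, which chance gives in about 1 in 20 groups. All 58 members were screened in both the vehicle and the resistant group, so some of the 14 flags would arise by chance. The share flagged over all genes was not counted. Groups of 3 were not tested. Of the 14, 8 concern vehicle mouse 1-5. In it GSTM3 was 66.95 TPM (other vehicle mice at most 9.98), GSTM4 30.48 TPM (at most 17.7) and GSTM2 1.3 TPM (at most 0.2). CYP4B1 was 61.26 TPM there (at most 21.4 in the others), CYP4X1 1.245 TPM (at most 0.36), ALDH1A3 7.895 TPM (at most 4.63) and ALDH3B2 1469 TPM (at most 682). CYP2U1 was lowest in that mouse, at 1.835 TPM (at least 3.17 in the others). Libraries A and B of this mouse both held the high values, as for GSTM3 with 65.7 and 68.2 TPM, except that GSTM2 was 1.94 TPM in A and 0.66 TPM in B.

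Resistant mouse 9-7 was highest for ALDH3B2 at 331.1 TPM (at most 149 in the other resistant mice), ALDH4A1 at 64.26 TPM (at most 47.7) and AKR1B1 at 5.8 TPM (at most 2.58). In mouse 9-3 CYP2A6 was 4.68 TPM, with 4.5 TPM in library A and 4.86 TPM in library B, against 0 to 0.2 TPM in the other resistant mice. CYP4F22 was 6.305 TPM in mouse 9-6 (at most 2.84 in the others), and ALDH7A1 was lowest in mouse 9-8 at 35.1 TPM (at least 38.2 in the others).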

How the results depend on the processing

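Over 174 results of single genes and 4684 values under the alternatives, 4396 stayed on their side of the threshold, 106 were newly called and 182 lost their call; the cause was not tested. The change relative to the median gene turned its sign in 47 values of 18 results, 0 of them called under that alternative. GSTM3 in sensitive versus vehicle, for one, was -0.33 with all mice and 0.27 without mouse 1-5, and 1 of the 18 was called with all mice (RXRB in resistant versus vehicle, -0.10, against 0.010 with B libraries alone). For members called in sensitive versus vehicle (4), the count was 22 with weights per mouse, 11 over the 26 libraries and 11 with the replicate block (letters A and B), and leaving out 1 mouse gave 0 (without 6-5) to 13 (without 6-4), with 2 without 6-6 and 7 without 1-6. For members called in resistant versus sensitive (14), leaving out 1 mouse gave 7 (without 6-4) to 18 (without 1-5), with 8 without 6-5 and 9 without 6-6. Weights per mouse gave 21, the 26 libraries 17, the replicate block 16 and A libraries alone 10. For members called in resistant versus vehicle (29), the filter at 5 TPM gave 19, which tests fewer genes, the replicate block gave 31, and B libraries alone gave 24, and leaving out 1 mouse gave 27 to 31. A threshold of 1 TPM would leave 49 members and 0.2 TPM would give 68. Depth is unknown, so members near 0.5 TPM carry an error that the table does not show, and log2(TPM + 1) understates their changes. Resistant and vehicle tumors come from separate studies, so study effects cannot be told apart from the change.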
